A study of Mus musculus with 9 samples.

Results

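The Schlafen family was followed through the tumors of a study of the PARP inhibitor Talazoparib. The family members were the rows of the count table whose Ensembl identifiers map to *Slfn1*, *Slfn2*, *Slfn3*, *Slfn4*, *Slfn5*, *Slfn8* and *Slfn9*, which made 7 genes of the 35275 in the table. They were chosen by measured values of these same tumors, because *Slfn9* had differed between the formulations of Talazoparib in an earlier test and because human SLFN11, a relative of the mouse genes, is tied to the response of cancer cells to PARP inhibitors. The difference between NanoTLZ and i.v. TLZ is therefore described below for every member and is not tested.

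RNA came from mammary gland tumors of 9 mice of the genotype Brca1Co/Co;MMTV-Cre;p53+/-, with 3 mice in each of 3 groups. The saline group received saline, the i.v. TLZ group free Talazoparib by intravenous injection, and the NanoTLZ group Talazoparib enclosed in a liposome. Both treated groups received 0.33 mg/kg per dose, and all groups received 5 doses at 3 doses a week. All 9 mice, the saline group included, carry Cre recombinase under the MMTV promoter, which acts mainly in the mammary epithelium and deletes part of *Brca1* there, and all carry 1 disrupted copy of p53. Whether the stromal and immune cells of the tumors keep *Brca1* was not measured. Each library holds RNA of epithelial, stromal and immune cells together. The ages of the mice are not given in the sources used here. Each tumor was 1 library with 1 identifier, and p-values measure the spread between these 9 tumors.

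Schlafen genes encode proteins that are found mainly in mammals and that are induced by type I interferon in many immune cells. In the mouse the short members Slfn1 and Slfn2 and the intermediate members Slfn3 and Slfn4 lack the helicase-like domain that the long members Slfn5, Slfn8 and Slfn9 carry. Slfn2 is needed for the quiescence and survival of T cells and monocytes, and Slfn4 is best known in myeloid cells. Human SLFN11 is a long member that binds stressed replication forks and blocks them, and cells that express it are killed more readily by PARP inhibitors and other agents that damage DNA. The mouse has no direct counterpart of SLFN11, and Slfn8 and Slfn9 are the long members often compared with it.

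Total counts on genes ranged from 17538380 to 21194980 per tumor, with a median of 19747343, and 15821 genes passed the filter on low counts, all 7 members among them. Epithelial *Epcam* was high in every tumor, from 604 to 1368 CPM (counts per 1000000 of the tumor's total, after that total was adjusted by TMM normalization). The saline tumor A3688 stood apart. It had the lowest summed level of 10 leukocyte markers (229 CPM, against 337 to 1226 in the other tumors) and the highest summed level of 7 skeletal muscle markers (732 CPM, against 4.54 to 196), and the members' differences from saline are given with and without it where it moves them. Muscle markers differed between the groups as well. They summed to 29.9 to 732 CPM in saline, 4.54 to 32.2 CPM after i.v. TLZ and 8.73 to 16.8 CPM after NanoTLZ, and all 7 were lower with both treatments than with saline, with a median log2 fold change of -5.24 (-3.74 without A3688). Of these only *Myh4* passed, with an adjusted p of 0.0207 in edgeR's quasi-likelihood test. Without A3673, 6 of the 7 passed, and without A3685 or any 1 treated tumor 0 passed. The part of muscle in the members' differences from saline was not tested.

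All members lie in 1 cluster on chromosome 11 of the mouse genome build GRCm38, between position 82951349, where *Slfn5* begins, and position 83215154, where *Slfn3* ends. *Slfn9* (ENSMUSG00000069793, positions 82978390 to 82991830), *Slfn8* (ENSMUSG00000035208, 83002158 to 83020810) and the pseudogene *Slfn10-ps* (ENSMUSG00000072621, 83028130 to 83040042) are neighbors on the reverse strand. *Slfn5* (ENSMUSG00000054404, 82951349 to 82964840), *Slfn2* (ENSMUSG00000072620, 83065112 to 83070678), *Slfn1* (ENSMUSG00000078763, 83116849 to 83122670), *Slfn4* (ENSMUSG00000000204, 83175186 to 83190216) and *Slfn3* (ENSMUSG00000018986, 83191330 to 83215154) are on the forward strand. Each position spans the exons and introns of the gene. Of the other genes with a Schlafen symbol, *Slfn10-ps* passed the filter, whereas *Slfn14*, the antisense *Slfn5os* and *Slfnl1* had 5, 1 and 13 counts over the 9 tumors together.

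The members resemble each other closely in places, which bears on how reads were assigned to them. The coding sequences of *Slfn8* and *Slfn9* were both 2730 bases long and were identical at 2531 of them (92.71%), and those of *Slfn3* and *Slfn4* were identical at 92.72% of 1785 aligned bases. The other pairs of members shared between 61.8% and 76.25% of their aligned bases. Of all 50-base windows in the transcripts, 14.6% in *Slfn8*, 11.2% in *Slfn9* and 19.7% in *Slfn10-ps* also occurred in another family gene, whereas *Slfn5* shared none with another member. For *Slfn3* and *Slfn4* the shares were 7.39% and 8.15%, and 16% and 11.3% of their windows occurred in any other gene on either strand. Values of *Slfn8*, *Slfn9* and *Slfn10-ps*, and of *Slfn3* and *Slfn4*, are thus uncertain to the extent that reads could be split between the copies. For *Slfn3* and *Slfn4* this extends to genes outside the family. *Slfn5os* overlaps *Slfn5* on the opposite strand, and the strand setting of the counting is not given in the sources used here.

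The promoters of the 3 long members are shown because they shared a feature that the other members lacked, the core of the interferon-stimulated response element (ISRE), the DNA motif through which interferon activates its target genes. Each sequence is the 250 bases before the gene's start in RefSeq (GRCm38.p6), read 5′ to 3′ on the gene's own strand, and capitals mark the ISRE core, which is GAAA, any 2 bases and GAAA again, on either strand. The windows are chr11:82991831-82992080 on the reverse strand for *Slfn9*, chr11:83020811-83021060 on the reverse strand for *Slfn8*, and chr11:82951852-82952101 on the forward strand for *Slfn5*. The first and second lie directly upstream of the annotated gene, and the last lies inside the span that GENCODE gives *Slfn5*, upstream of the RefSeq start.
Slfn9: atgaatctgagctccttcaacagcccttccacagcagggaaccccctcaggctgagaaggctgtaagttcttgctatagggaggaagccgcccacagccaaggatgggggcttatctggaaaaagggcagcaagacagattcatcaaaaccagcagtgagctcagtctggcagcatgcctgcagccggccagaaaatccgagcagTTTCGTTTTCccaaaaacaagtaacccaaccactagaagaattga
Slfn8: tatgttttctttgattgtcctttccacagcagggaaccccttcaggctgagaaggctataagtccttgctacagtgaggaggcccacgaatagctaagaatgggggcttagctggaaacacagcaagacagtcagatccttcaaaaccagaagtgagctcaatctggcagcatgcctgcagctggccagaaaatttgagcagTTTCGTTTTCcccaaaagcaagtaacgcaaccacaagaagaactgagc
Slfn5: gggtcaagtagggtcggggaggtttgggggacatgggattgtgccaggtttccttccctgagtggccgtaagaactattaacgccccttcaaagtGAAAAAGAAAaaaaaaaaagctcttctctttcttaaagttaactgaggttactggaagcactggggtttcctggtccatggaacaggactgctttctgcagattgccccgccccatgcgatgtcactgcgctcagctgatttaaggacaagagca

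The motif began 45 bases before the start of *Slfn9*, 48 bases before the first listed start of *Slfn8* and 155 bases before that of *Slfn5*. It was present in 3.46% of the same windows of all 27025 genes in the RefSeq table (936 genes), and was not found in the windows of *Slfn1*, *Slfn2*, *Slfn3* or *Slfn4*. The *Slfn8* and *Slfn9* windows were identical at 206 of 242 aligned bases (85.1%), while other pairs of members shared between 49.1% and 64.2%. Neither the gamma-activated sequence TTCNNNGAA nor GAGGAAGT, an 8-base form of the site of the myeloid factor PU.1, was found in the window of any of the 7 members. These were present in 8.13% and 2.79% of all windows. CAGGAAGT, which differs from that form in its first base, did occur on either strand in the windows of *Slfn1*, *Slfn2*, *Slfn3* and *Slfn4*. Its share over all windows was not counted. These matches describe letters in the sequence and are not evidence that a factor was bound.

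*Slfn2* was the most abundant member when levels were set per length of transcript, as CPM per kilobase of exons (FPKM). Over the 9 tumors its level was 17.9 ± 10.6 FPKM (SD, n = 9), followed by *Slfn9* at 2.9 ± 1.86. *Slfn1* (0.835 ± 0.695), *Slfn3* (0.82 ± 0.706), *Slfn5* (0.714 ± 0.405), *Slfn8* (0.698 ± 0.749) and *Slfn4* (0.679 ± 0.551) came next and did not differ from each other beyond their spread. The order changed in the i.v. TLZ group, where *Slfn9* (0.88 ± 0.123 FPKM, n = 3) was within the spread of *Slfn1* (0.938 ± 1.17).

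The sum of the 7 members was 15.2, 34.3 and 7.78 FPKM in the saline tumors A3673, A3685 and A3688, 37.7, 10.1 and 13.8 FPKM in the i.v. TLZ tumors B3638, B3684 and B3700, and 38.5, 25.6 and 38.2 FPKM in the NanoTLZ tumors C3519, C3669 and C3698. The groups overlapped. *Slfn2* made up between 54.9% and 87% of that sum in every tumor except A3688, where it made up 25.2% and *Slfn9* made up 64.1%. In the other 8 tumors the share of *Slfn9* lay between 2.07% and 21.7%, with 2.07%, 10.1% and 6.13% in the i.v. TLZ tumors.

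**Figure D1:**
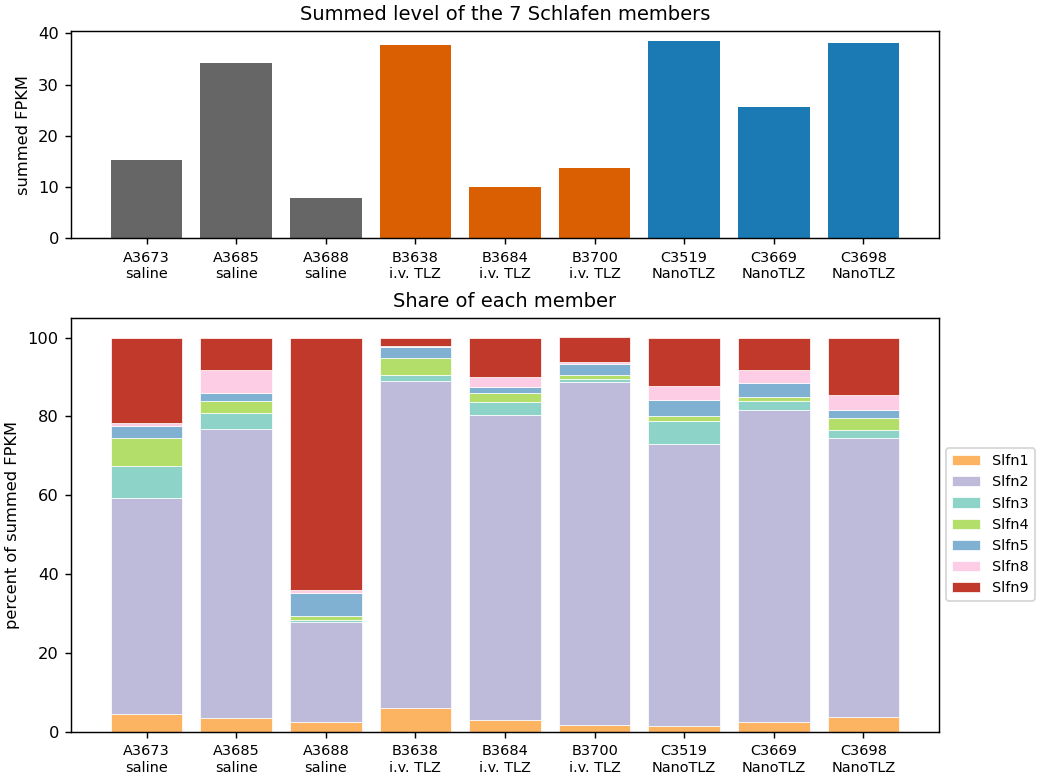
Summed FPKM of the 7 members in each of the 9 tumors (upper panel) and the percentage of that sum from each member (lower panel), with 1 bar per tumor. *Slfn2* is the largest share in every tumor except the saline tumor A3688, where *Slfn9* holds 64.1%.

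*Slfn9*, a long member with the helicase-like domain, was the member whose difference prompted the choice of the family. Its level was 19.7, 16.8 and 29.8 CPM in the saline tumors (A3673, A3685 and A3688, an order kept from here on), 4.65, 6.07 and 5.03 CPM in the i.v. TLZ tumors (B3638, B3684 and B3700), and 28.2, 12.5 and 32.9 CPM in the NanoTLZ tumors (C3519, C3669 and C3698). Every i.v. TLZ tumor lay below every saline and every NanoTLZ tumor, and the saline and NanoTLZ tumors overlapped. These levels rested on 93 to 111 counts per tumor after i.v. TLZ and on 229 to 649 counts per tumor in the other groups. The saline mean was 22.1 ± 6.82 CPM, the i.v. TLZ mean 5.25 ± 0.732 CPM and the NanoTLZ mean 24.5 ± 10.7 CPM (SD, n = 3 each), so that the i.v. TLZ mean was 4.2-fold below saline and the NanoTLZ mean 4.67-fold above i.v. TLZ.

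The fitted log2 difference of *Slfn9* was 2.22 ± 0.43 (SE) for NanoTLZ minus i.v. TLZ, the comparison for which the gene was chosen. Against saline, the fitted log2 fold changes were -2.07 ± 0.42 with i.v. TLZ and 0.15 ± 0.40 with NanoTLZ, which use the same treated tumors and are given as descriptions. The mean of both treated groups against saline is not the comparison for which the gene was chosen. It is the mean of both fold changes above and holds the same treated tumors, so its p does not stand apart from the choice. There the log2 fold change was -0.96 ± 0.34 (95% interval -1.72 to -0.20). Its unadjusted p was 0.0184 and its adjusted p was 0.307 in edgeR's quasi-likelihood test with Benjamini-Hochberg adjustment over all tested genes, so *Slfn9* did not pass. Without A3688, the saline tumor with the highest *Slfn9*, the value was -0.66 ± 0.36 with an adjusted p of 0.588 in the same test.

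*Slfn8*, the long member closest to *Slfn9* in sequence, was low in most tumors. It measured 0.515, 8.2 and 0.184 CPM in the saline tumors, 0.436, 1.04 and 0.271 CPM in the i.v. TLZ tumors and 5.68, 3.38 and 6 CPM in the NanoTLZ tumors. The saline tumors spanned the whole range of the other groups, with A3685 above every treated tumor and A3688, at 4 counts, below every one of them. The NanoTLZ tumors all lay above the i.v. TLZ tumors, with means of 5.02 ± 1.43 and 0.582 ± 0.404 CPM and a fitted log2 difference of 3.10 ± 1.21.

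Against saline, the log2 fold changes of *Slfn8* were -2.34 ± 1.18 with i.v. TLZ (adjusted p = 0.513, edgeR) and 0.76 ± 1.10 with NanoTLZ (adjusted p = 0.843, edgeR). The mean of both treatments differed from saline by -0.79 ± 0.94 (adjusted p = 0.737, edgeR). The saline mean of 2.97 ± 4.53 CPM was set by A3685, and without that tumor the fold changes were 0.74 with i.v. TLZ, 3.84 with NanoTLZ and 2.29 with both, on the log2 scale. Without A3688 they were -2.89, 0.22 and -1.33.

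The pseudogene *Slfn10-ps*, which lies beside *Slfn8* and is not a member, is given because it shares windows with both. Its levels were 3.78, 13.2 and 0.734 CPM in saline, 1.26, 0.765 and 0.974 CPM in i.v. TLZ and 4.48, 6.39 and 8.12 CPM in NanoTLZ. Like *Slfn8*, it was highest in A3685, and its NanoTLZ tumors lay above its i.v. TLZ tumors. The order of tumors within saline was different from that of *Slfn9*: A3688 held 649 counts on *Slfn9* but 4 on *Slfn8* and 16 on *Slfn10-ps*.

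The reads of *Slfn8*, *Slfn9* and *Slfn10-ps* were also added together, so that a split among the 3 copies could not matter, though dropped reads stay lost. The sum was 24, 38.2 and 30.7 CPM in saline, 6.35, 7.87 and 6.28 CPM in i.v. TLZ and 38.4, 22.3 and 47 CPM in NanoTLZ. The i.v. TLZ tumors (6.83 ± 0.901 CPM) lay below all saline (30.9 ± 7.1 CPM) and all NanoTLZ tumors (35.9 ± 12.5 CPM), as they did for *Slfn9* alone. *Slfn9* supplied most of the sum, with 3095 counts over the 9 tumors, against 514 for *Slfn8* and 784 for *Slfn10-ps*. The summed log2 difference was 2.39 ± 0.36 between NanoTLZ and i.v. TLZ and -0.98 ± 0.29 between both treatments and saline, with an adjusted p of 0.283 for the latter in edgeR's test.

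**Figure D2:**
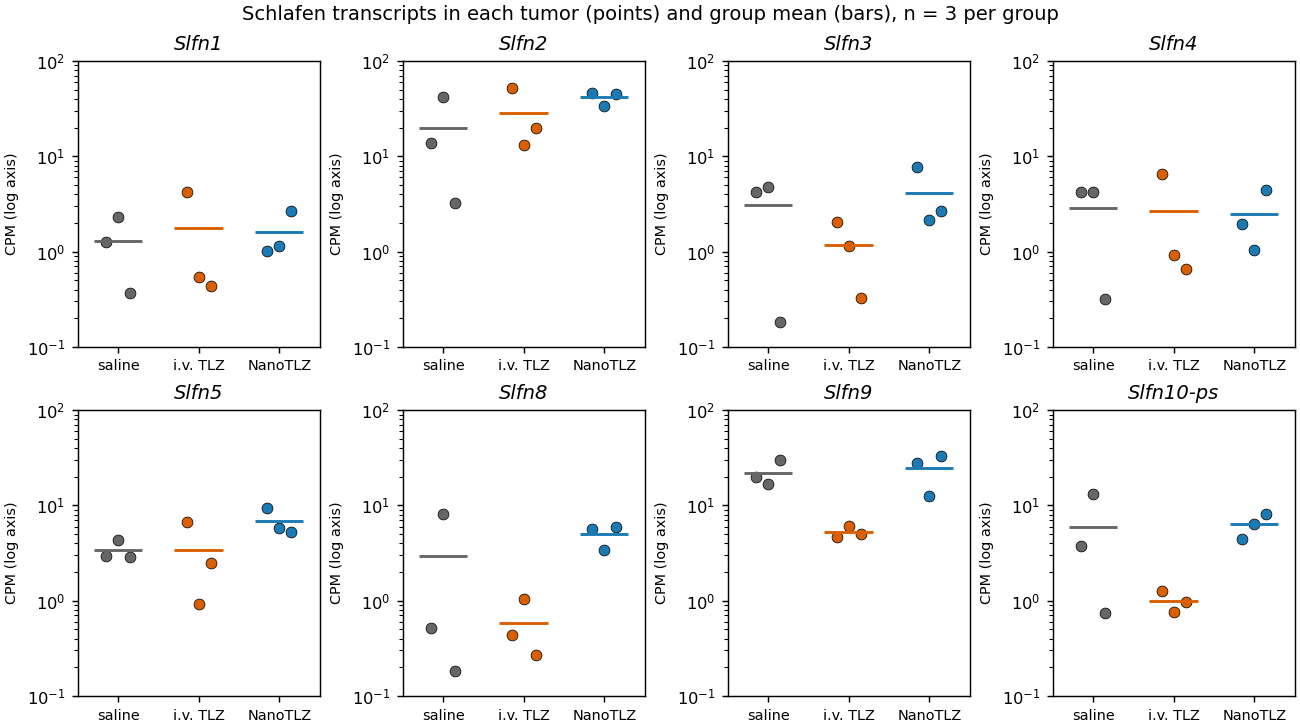
Level of the 7 Schlafen members and *Slfn10-ps* in each tumor, in CPM on a log axis, with a point per tumor and a bar at the mean of each group of 3. The 3 i.v. TLZ tumors lie below all other tumors for *Slfn9*, from 4.65 to 6.07 CPM.

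*Slfn5*, a long member that is induced by interferon, was the only member whose NanoTLZ tumors all lay above the saline tumors. It measured 2.98, 4.29 and 2.89 CPM in saline, 6.69, 0.929 and 2.49 CPM in i.v. TLZ and 9.39, 5.73 and 5.28 CPM in NanoTLZ. The i.v. TLZ tumors lay on both sides of the others, with B3638 high and B3684 the lowest of all 9. The means were 3.38 ± 0.784 CPM in saline and 6.8 ± 2.25 CPM in NanoTLZ, a 2.01-fold difference, and 3.37 ± 2.98 CPM in i.v. TLZ.

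The log2 fold change of *Slfn5* with NanoTLZ was 1.0 ± 0.65 (95% interval -0.44 to 2.45) and its adjusted p was 0.629 in edgeR's test. With i.v. TLZ it was -0.00 ± 0.65 (adjusted p = 0.999, edgeR), and for both treatments together 0.50 ± 0.57 (adjusted p = 0.727, edgeR). The described difference between NanoTLZ and i.v. TLZ was 1.01 ± 0.65 on the log2 scale.

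*Slfn2*, the short member needed by resting T cells and monocytes, varied widely within saline. It measured 13.9, 41.7 and 3.26 CPM in saline, 51.9, 13 and 19.9 CPM in i.v. TLZ and 46, 33.8 and 45 CPM in NanoTLZ. The NanoTLZ tumors were alike (41.6 ± 6.78 CPM), while saline (19.6 ± 19.9) and i.v. TLZ (28.3 ± 20.8) each held 1 tumor at that level or above and others well below it. The log2 fold change was 1.08 ± 0.77 with NanoTLZ (95% interval -0.63 to 2.80, adjusted p = 0.657, edgeR), 0.53 ± 0.77 with i.v. TLZ (adjusted p = 0.836, edgeR) and 0.80 ± 0.68 with both (adjusted p = 0.626, edgeR). The values with NanoTLZ and with both were 0.60 and 0.31 without A3688, the saline tumor with the least *Slfn2*, and 2.28 and 2.0 without A3685, the saline tumor with the most.

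*Slfn1*, the other short member, and *Slfn4*, the intermediate member of myeloid cells, were low and had no separation between groups. *Slfn1* measured 1.26, 2.29 and 0.367 CPM in saline, 4.27, 0.547 and 0.433 CPM in i.v. TLZ and 1.01, 1.15 and 2.69 CPM in NanoTLZ. *Slfn4* measured 4.18, 4.19 and 0.321 CPM in saline, 6.5, 0.929 and 0.649 CPM in i.v. TLZ and 1.97, 1.04 and 4.45 CPM in NanoTLZ. For both genes the i.v. TLZ tumor B3638 was the highest of all 9 and the saline tumor A3688 the lowest. The log2 fold changes of both treatments against saline were 0.37 ± 0.84 for *Slfn1* (adjusted p = 0.879, edgeR) and -0.16 ± 0.91 for *Slfn4* (adjusted p = 0.956, edgeR). Their differences between NanoTLZ and i.v. TLZ were -0.12 ± 0.95 and -0.12 ± 1.06, and without B3638 these became 1.71 and 1.65. Without A3688 the fold changes of both treatments against saline were -0.06 for *Slfn1* and -0.67 for *Slfn4*, and without B3638 they were -0.55 and -1.04.

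*Slfn3*, the intermediate member closest to *Slfn4*, measured 4.23, 4.81 and 0.184 CPM in saline, 2.04, 1.15 and 0.325 CPM in i.v. TLZ and 7.65, 2.13 and 2.64 CPM in NanoTLZ. Its NanoTLZ tumors lay above its i.v. TLZ tumors, but only narrowly, at 2.13 against 2.04 CPM, and the saline tumors overlapped both. The fitted log2 difference between NanoTLZ and i.v. TLZ was 1.82 ± 1.04. The log2 fold change was -1.39 ± 1.03 with i.v. TLZ (adjusted p = 0.639, edgeR), 0.43 ± 1.0 with NanoTLZ (adjusted p = 0.911, edgeR) and -0.48 ± 0.86 with both (adjusted p = 0.835, edgeR). Without A3688, the saline tumor with the least *Slfn3*, these were -1.93, -0.10 and -1.02.

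Counted over the family, i.v. TLZ and saline tumors did not overlap for 1 of the 7 members, *Slfn9*, which was lower. The same was true of 5.2% of all tested genes in that direction. NanoTLZ and saline tumors did not overlap for 1 of 7, *Slfn5*, which was higher, against 7.82% of all tested genes. All 6 treated tumors lay on 1 side of the saline tumors for 0 of 7 members, against 2.81% of tested genes higher and 2.66% lower. NanoTLZ tumors lay above i.v. TLZ tumors for 3 of 7, *Slfn3*, *Slfn8* and *Slfn9*, against 3.2% of tested genes, a comparison from which nothing is read because the choice of members used it.

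No member passed an adjusted p of 0.05 in edgeR's test in any of the 3 comparisons with saline. The share of all tested genes that passed was 0% with i.v. TLZ, 0.00632% with NanoTLZ and 0.019% with both treatments. At an unadjusted p under 0.05 the count was 1 of 7 with both treatments (*Slfn9*, lower), beside 8.29% of tested genes lower, and 0 of 7 with NanoTLZ, beside 3.51% of tested genes higher and 5.49% lower. With i.v. TLZ it was also 1 of 7 (*Slfn9*, lower), beside 5.47% of tested genes lower. The choice of *Slfn9* used the i.v. TLZ tumors, which enter both of these counts of *Slfn9*, and nothing is read from either. DESeq2 fitted to all 9 tumors passed no member with NanoTLZ or with both treatments, where it passed 0.712% and 1.53% of all genes it tested. With i.v. TLZ it passed *Slfn9* alone, beside 1.12% of all genes, and the same limit applies. This fit gave *Slfn8* no adjusted p with i.v. TLZ or with NanoTLZ. Without its Cook's distance filter, which sets aside outlying counts, those were 0.294 and 0.856 (DESeq2). Limma-voom passed 0 of 7 in all 3. The median log2 fold change of the 7 members was -0.10 with i.v. TLZ, 0.43 with NanoTLZ and -0.16 with both, against -0.03, -0.09 and -0.06 over all tested genes. The comparisons with saline share the saline tumors, and so their values are given side by side without a measure of their likeness.

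**Figure D3:**
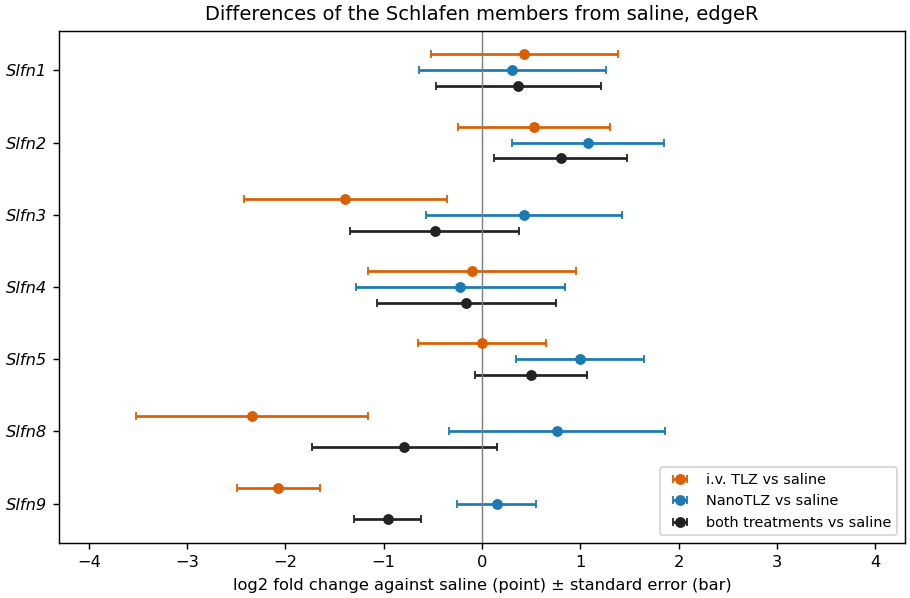
Fitted log2 fold change of each member against saline with i.v. TLZ, with NanoTLZ and with the mean of both (points), with bars of ± 1 standard error from edgeR. *Slfn9* lies at -2.07 with i.v. TLZ and at 0.15 with NanoTLZ, and *Slfn8* lies at -2.34 with i.v. TLZ with a standard error of 1.18.

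**Figure D4:**
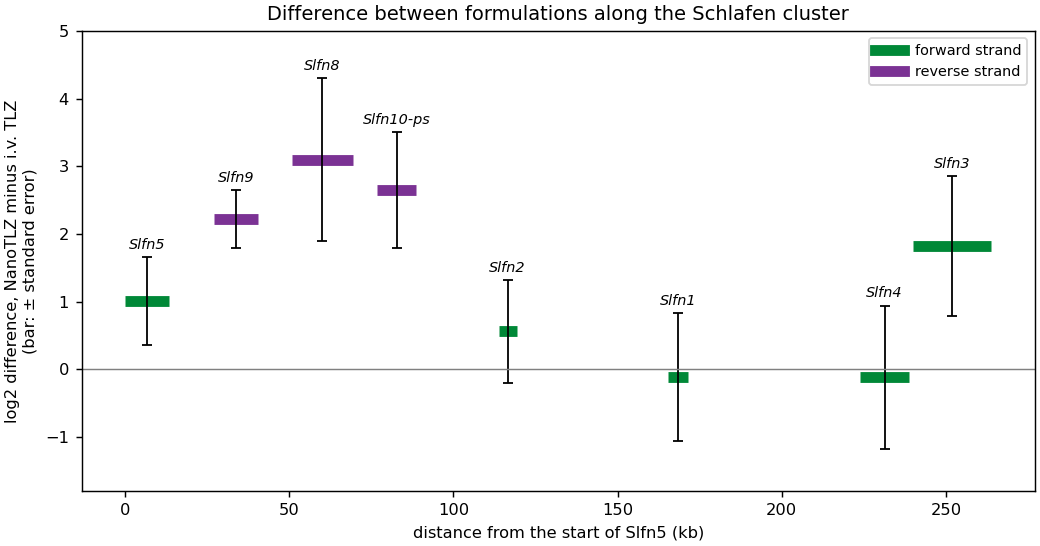
Log2 difference between NanoTLZ and i.v. TLZ for the members and *Slfn10-ps*, placed by distance in kilobases from the start of *Slfn5*, with bars of ± 1 standard error. The reverse-strand neighbors *Slfn9*, *Slfn8* and *Slfn10-ps* lie at 2.22, 3.10 and 2.65, and *Slfn2*, *Slfn1* and *Slfn4* lie at 0.56, -0.12 and -0.12.

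The other genes around the cluster gave a comparison by position. Of 15 protein-coding genes outside the family within 300 kb of the cluster, 11 were tested, and 0 passed in edgeR's test of both treatments against saline, with 1 at an unadjusted p under 0.05. That gene was *Lig3*, a DNA ligase of single-strand break repair, with a log2 fold change of -1.20 ± 0.32 (adjusted p = 0.279, edgeR). Of all 15821 tested genes, 760 were higher and 1312 lower at the same unadjusted threshold, and nothing is read from 1 of 11 neighbors. In this comparison 5 of the 11 were higher and 6 lower, with a median of -0.15. With i.v. TLZ alone 3 were higher and 8 lower, and with NanoTLZ alone 7 were higher and 4 lower. Between NanoTLZ and i.v. TLZ, 10 of the 11 were higher and 1 lower, with a median of 0.45. Over all tested genes 45.6% were higher between these formulations, with a median of -0.04. The part of the wider region in the members' difference between formulations was not tested.

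Schlafen transcripts are abundant in leukocytes, and the level of the members was set beside that of *Ptprc*, which encodes the leukocyte antigen CD45. *Ptprc* measured 64.3, 86.4 and 13.8 CPM in saline, 66.1, 25.9 and 43.4 CPM in i.v. TLZ and 76.6, 51.9 and 91.7 CPM in NanoTLZ, with its lowest value in A3688. Over the 9 tumors, Pearson's r of log2 CPM with *Ptprc* was 0.902 for *Slfn2*, 0.838 for *Slfn4*, 0.822 for *Slfn3*, 0.775 for *Slfn1*, 0.667 for *Slfn8*, 0.619 for *Slfn5* and 0.106 for *Slfn9*. Much of this range came from A3688, which was low in *Ptprc* and high in *Slfn9*. Without it the value for *Slfn9* was 0.686, and those of the other members lay between 0.541 (*Slfn8*) and 0.806 (*Slfn5*). These correlations describe 9 tumors that share libraries and groups. In a bulk tumor, fewer cells of a type and less RNA per cell cannot be told apart.

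Summed over 10 general leukocyte markers, the groups overlapped but NanoTLZ lay highest. The summed level of the 10 leukocyte markers ranged from 229 to 958 CPM in saline, from 337 to 825 CPM in i.v. TLZ and from 740 to 1226 CPM in NanoTLZ, with no marker at 0 in any tumor. All 10 were higher with NanoTLZ than with saline, with a median log2 fold change of 0.77, beside 43.9% of all tested genes higher. Of the 10, 0 passed in edgeR's test, nor did any at an unadjusted p under 0.05. With both treatments against saline all 10 were also higher, with a median of 0.41. Without A3688, 6 were higher and 4 lower in that comparison, with a median of 0.12. Without B3638, 7 were higher and 3 lower. The 13 T and NK cell markers summed to between 6.98 and 23.1 CPM in saline, 9.51 and 33 CPM in i.v. TLZ and 23.6 and 47.7 CPM in NanoTLZ. The NK cell receptor gene *Ncr1* was at 0 in all saline and all i.v. TLZ tumors, and lay between 0 and 0.109 CPM in NanoTLZ, which is near the floor. *Klrb1c*, another NK cell marker, had means of 0.687, 0.556 and 0.17 CPM in saline, i.v. TLZ and NanoTLZ. It was the 1 of 11 tested T and NK cell markers that was lower with NanoTLZ than with saline. The 10 macrophage and monocyte markers summed to between 693 and 3389 CPM, 1900 and 3479 CPM, and 4621 and 5479 CPM, in the same order. There the NanoTLZ tumors lay above all others, a separation that *Lyz2* alone of the 10 markers had. *Lyz2* was the largest part of the sum, with means of 724, 1699 and 3054 CPM. Its lowest NanoTLZ value was 2260 CPM and its highest i.v. TLZ value 2211 CPM. The other markers overlapped, as *Csf1r* did, from 314 CPM in NanoTLZ against up to 328 CPM in saline and 370 CPM in i.v. TLZ. The 8 neutrophil markers, with ranges of 10.1 to 224, 41.6 to 190 and 59.7 to 187 CPM, overlapped across all 3 groups. So did the 7 B and plasma cell markers, at 1.66 to 5.73, 2.57 to 29.5 and 3.49 to 44.5 CPM. With NanoTLZ against saline, some markers were higher at an unadjusted p under 0.05 in edgeR's test. They were 3 of 10 tested for macrophages and monocytes, 3 of 11 for T and NK cells, 3 of 5 for B and plasma cells and 0 of 6 for neutrophils. The share of all tested genes was 3.51%, and none of these markers passed. *Pax5*, *Cd79a* and *Foxp3* reached at most 0.0953, 0.275 and 0.229 CPM in saline and passed the filter on low counts only through treated tumors. A marker as low in saline could be tested only if it was higher in treated tumors. Nothing is therefore read from the counts for T and NK cells or for B and plasma cells beside that share. The part of these cells in the levels of *Slfn2* and *Slfn5* in NanoTLZ tumors was not tested.

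Each member was also matched to the 3 tested genes with the most similar pattern of log2 CPM over the 9 tumors. *Slfn2* was nearest to *Ccl4*, a chemokine of myeloid cells and T cells (r = 0.987), *Ptafr*, the receptor for platelet-activating factor (0.986), and *Pirb*, an inhibitory receptor of myeloid and B cells (0.980). *Slfn4* was nearest to *Retnlg* (0.979), a neutrophil gene, *Ifitm1* (0.965), an interferon-induced gene, and *Cxcr2* (0.959), the neutrophil chemokine receptor. *Slfn5* was nearest to *Klhl4* (0.966), then to *Cd3d* (0.954), a subunit of the T cell receptor complex, and *Skap1* (0.936), an adaptor of T cell signaling. *Slfn1* was nearest to the unnamed gene models *Gm10499* (0.966) and *Gm13398* (0.959) and to the Notch ligand *Dll4* (0.944). *Slfn3* was nearest to *Bcl9* (0.965), *Pctp* (0.952) and *Asb4* (0.934), and *Slfn8* to *Tlr1* (0.896), a receptor for bacterial lipoproteins, *Hacd4* (0.880) and *Treml4* (0.874).

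The nearest genes of *Slfn9* were *Gm14418* (0.933), *Plxna1* (0.923), a semaphorin receptor, and *Brip1os* (0.904), a transcript opposite the helicase gene *Brip1*. The highest of some 15821 correlations over 9 tumors is high for any gene, and the ranking is a description only.

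Within the family, the closest pair was *Slfn1* and *Slfn4*, with r = 0.928 and Spearman's rho = 0.983, and r = 0.882 without the 2 tumors farthest from the median of *Slfn1* or *Slfn4*. *Slfn8* and *Slfn10-ps* followed, with r = 0.864. *Slfn9* had r between -0.139 (*Slfn2*) and 0.515 (*Slfn10-ps*) with the other genes of the family over all 9 tumors, and 0.432 with *Slfn8*, the gene most like it in coding sequence. All of these values were higher without A3688. Over the other 8 tumors, r of *Slfn9* was 0.816 with *Slfn10-ps*, 0.760 with *Slfn3*, 0.745 with *Slfn8*, 0.466 with *Slfn5*, 0.359 with *Slfn4*, 0.301 with *Slfn2* and 0.240 with *Slfn1*.

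**Figure D5:**
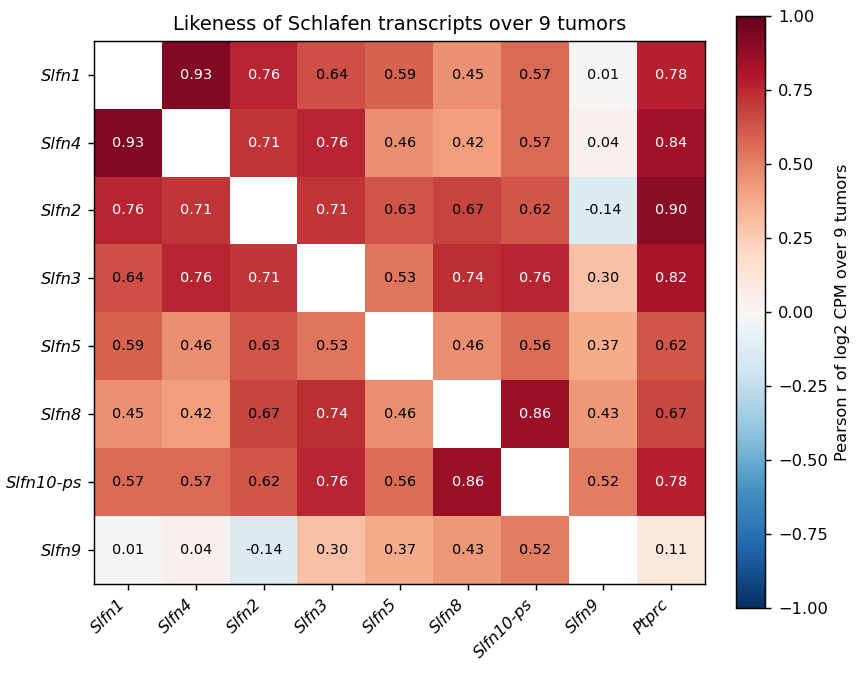
Pearson's r of log2 CPM over 9 tumors between the members, *Slfn10-ps* and the leukocyte gene *Ptprc*, on a color scale from -1 to 1. *Slfn9* has an r of 0.106 with *Ptprc*, which becomes 0.686 without the saline tumor A3688, and the other members have values from 0.619 to 0.902.

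Because interferon induces several Schlafen genes, the interferon system was examined in the same comparisons. The 7 listed interferon ligand genes were all too low to be tested. Of 30 interferon-stimulated genes, 18 were higher and 12 lower with both treatments than with saline, against 46% higher over all tested genes. Their median log2 fold change was 0.15, against -0.06, and 0 passed in edgeR's test. Without the i.v. TLZ tumor B3638, 11 were higher and 19 lower, with a median of -0.26. Over all 9 tumors there were 2 at an unadjusted p under 0.05, *Ifit1*, a sensor of viral RNA (1.59 ± 0.51, adjusted p = 0.288, edgeR), and *Bst2*, which tethers budding viruses (1.29 ± 0.48, adjusted p = 0.321, edgeR). Of all 15821 tested genes, 760 were higher at an unadjusted p under 0.05 in the same test. Of 13 genes of interferon signaling, 10 were higher and 3 lower with a median of 0.26 (0.04 without A3688), and 0 passed, also at an unadjusted p under 0.05. On the same scale *Slfn5* had 0.50, *Slfn2* 0.80 and *Slfn9* -0.96, and none of the 3 passed.

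The partners of SLFN11 in the response to replication stress made up the last list. Of 16 such genes, 14 were lower and 2 higher with both treatments than with saline, with a median log2 fold change of -0.64, against -0.06 and 46% higher over all tested genes. None passed in edgeR's test, and 8 were lower at an unadjusted p under 0.05 (4 without A3688). *Rpa3*, a subunit of the protein that coats single-stranded DNA, had -4.28 ± 0.91 (adjusted p = 0.238, edgeR). That value rested on the saline tumor A3673, with 993 CPM against 38.8 and 46.4 CPM in the other saline tumors and 8.22 to 38.4 CPM in the treated tumors, and without it *Rpa3* had -1.18 ± 0.45 (adjusted p = 0.351, edgeR). *Clspn*, which passes the checkpoint signal at forks, had -1.20 ± 0.32 (adjusted p = 0.279, edgeR). In i.v. TLZ and NanoTLZ alone the medians of this list were -0.68 and -0.60, and *Slfn9* had -2.07 and 0.15.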

How the data were processed

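RNA of 9 mammary tumors was sequenced from standard Illumina libraries. The values the authors deposited are raw counts of reads on each gene, not normalized, and these were used as deposited. The submitters' processing notes name TopHat2, DESeq2 and the build mm10, which is GRCm38. The annotation, counting program and strand setting are not given in the sources used here. Reads that fit several near-identical Schlafen genes could be dropped or split, which would lower or blur their values. Of 35275 identifiers, 34490 matched a symbol in GENCODE M21 (GRCm38) and 785 did not. Promoter sequences are from RefSeq (GRCm38.p6) and all 7 members had one.

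Genes were kept with filterByExpr (minimum count 10, minimum total 15), counts were scaled by TMM, and a model with a mean for each group was fitted across the 9 tumors in edgeR 4.0.16 (R 4.3.3). The quasi-likelihood test compared i.v. TLZ, NanoTLZ and their mean with saline, two-sided. P-values were adjusted by Benjamini-Hochberg over 15821 genes and called under 0.05. CPM are counts per 1000000 of each tumor's total over the kept genes, after that total was multiplied by its TMM factor. FPKM are CPM per kilobase of all exons, and correlations used log2 CPM with a prior count of 2. Motifs were searched on both strands of 250 bases, and aligned with biopython 1.88. The fits were tested on simulated data.

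Alternatives were DESeq2 1.42.0, whose test the study's methods name, limma-voom (limma 3.58.1), edgeR on the groups compared alone, other normalizations, filters and dispersions, near-identical members summed, transcript length, and each tumor left out. The correlations without A3688, and the gene lists and *Rpa3* with each tumor left out, were added after seeing the data. The members, gene lists and alternatives were chosen with earlier results of these data known. The genes named beside the members were the 3 most alike for each, and list genes with the smallest unadjusted p. Depth, from 17538380 to 21194980 counts per tumor, left *Slfn8* at 4 counts in 1 tumor, so its smallest values are coarse.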

Additional observations from a re-analysis of the deposited data

How the results depend on the processing

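Under the alternatives 393 values were recomputed, with a missing adjusted p counted as not passing. Of these, 354 kept their direction and side of the threshold, 36 turned direction and 3 came to pass the threshold. Those 3 were *Slfn9* with i.v. TLZ against saline, so that 1 member passed with DESeq2 on all 9 tumors, with and without its Cook's distance filter, and on the compared groups alone. The choice of *Slfn9* used these i.v. TLZ tumors, so this is a description. In the same order, these 3 fits passed 94 of 17367, 128 of 17254 and 45 of 17213 tested genes as lower. No edgeR or limma-voom alternative passed a member in the comparisons with saline. Among the log2 fold changes that turned, *Slfn5* with i.v. TLZ was 0.05 under upper quartile normalization and 0.02 with at least 10 counts in every tumor. With NanoTLZ, *Slfn4* was 0.27 in limma-voom and 0.15 when near-identical members were summed. With both treatments, limma-voom gave 0.25 for *Slfn3*, 0.08 for *Slfn4* and 0.71 for *Slfn8*. The cause was not tested.

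Leaving out each tumor gave, with i.v. TLZ, ranges of -1.40 to 1.11 for *Slfn1*, -0.26 to 1.72 for *Slfn2*, -1.87 to 0.36 for *Slfn4*, -0.98 to 0.44 for *Slfn5* and -3.05 to 0.74 for *Slfn8*. With NanoTLZ they were -0.25 to 0.99 for *Slfn1*, -0.37 to 0.91 for *Slfn3*, -0.91 to 0.18 for *Slfn4* and -0.08 to 0.50 for *Slfn9*. With both they were -0.55 to 1.05 for *Slfn1*, -1.04 to 0.21 for *Slfn4* and -1.33 to 2.29 for *Slfn8*. *Slfn9* stayed between -2.24 and -1.78 with i.v. TLZ and between -1.12 and -0.66 with both. *Slfn2* lay between 0.60 and 2.28 with NanoTLZ and between 0.31 and 2.0 with both. Without A3688, an alternative chosen after seeing the data, r of *Slfn2* with *Slfn9* turned from -0.139 to 0.301. Between NanoTLZ and i.v. TLZ, ranges were -0.67 to 1.71 for *Slfn1* and -0.81 to 1.65 for *Slfn4*. Groups of 3 tumors and the few counts of *Slfn1* and *Slfn8* limit these values. No paired analysis was possible because no replicate number in the labels ties tumors of different groups.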
